A study of Mus musculus with 11 samples.

Results

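The proximal end of mouse chromosome 9, from 3 to 20 Mb on build mm9, holds the neighbouring genes Birc2, Birc3 and Yap1. The region was taken as all genomic probes of the array that start in this interval, which gave 1049 of the 170305 probes measured (0.616%), between positions 3046525 and 19984599. Of these probes, 618 carry a gene name, and they name 96 genes. The other 7687 probes of chromosome 9 served for comparison. The region was proposed for the high ratios of tumour 3 there, so its members were in effect chosen by the log2 ratios of tumour 3, which are given as a description with no test, and the tests cover the 10 other tumours. The border at 20 Mb lies within an even stretch: in tumour 3 the last 10 probes inside averaged 0.13 on the log2 scale and the first 10 outside averaged 0.072.

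The DNA came from 11 mammary tumours of mice with the activated mutant Pik3ca H1047R on a mixed FVBN/Bl6 background. The tumours are labelled as biological replicates of 1 group (n = 11), and the liver DNA that served as the reference of each array came from the same animal and carries the same strain and mutant label. No tumour without the mutant was part of the design, and the promoter that drives the mutant and the ages of the mice are not given in the sources used here. Tumour DNA was labelled with Cy5 (red) and liver DNA with Cy3 (green), and each value is the log2 ratio of red over green intensity minus the median of its array, so that 0 stands for the typical probe. A ratio averages over all cells of a tumour sample, so that more copies in fewer cells and fewer copies in more cells cannot be told apart.

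The noise SD of a single probe, taken between neighbouring probes, ran from 0.13 in tumour 8 to 0.55 in tumour 9, and it was 0.15 in tumour 3. Probes dim in the red or the green channel, by the scanner software's own mark, made up 0% of the region in tumour 3, 8.87% in tumour 2 and 13.1% in tumour 9. The direction of tumour 11 is not settled. Over all probes its ratios correlated at -0.60, -0.61, -0.65 and -0.32 (Pearson, across probes) with those of tumours 4, 5, 9 and 10. The labels give all arrays the same dyes. With tumours 1, 2, 3, 6, 7 and 8 the correlations were 0.078, -0.059, -0.097, 0.25, -0.22 and -0.036. Tumours 4, 5 and 9 had 0.16, 0.050 and 0.030 with tumour 1, and 0.18, 0.16 and 0.13 with tumour 2. They had 0.29, 0.30 and 0.23 with tumour 3, and 0.042, 0.086 and -0.036 with tumour 6. With tumour 7 they had 0.47, 0.42 and 0.47, and with tumour 8 0.15, 0.22 and 0.12. Whether the channels of tumour 11 were exchanged was not tested. Tumours 4, 5 and 9 correlated with each other at 0.71 (4 and 5), 0.78 (4 and 9) and 0.74 (5 and 9). In the region alone, tumour 11 had -0.60, -0.58, -0.66 and -0.26 with tumours 4, 5, 9 and 10, and 0.40 with tumour 6. The tests over tumours, and the ranges that tumour 11 bounds, are therefore also given with its sign turned. With 1 array per tumour, precision rests on how many arrays there were. The tests over tumours take the arrays as independent, which the correlations among tumours 4, 5, 7, 9, 10 and 11 put in doubt. Tumour 10 correlated with tumours 4, 5 and 9 at 0.48, 0.42 and 0.47. Tumours 4, 7, 9 and 11 shared a slide and tumours 5 and 10 were on another, so a slide block does not cover all of these correlations.

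Birc2 and Birc3 encode the cellular inhibitors of apoptosis, ubiquitin ligases that act on receptor signalling complexes and on the NF-kB pathway. Yap1 encodes a transcriptional coactivator that works with TEAD factors and is held in the cytoplasm by the kinases of the Hippo pathway. The 3 genes lie next to a cluster of matrix metalloproteinase genes, whose products cleave collagens and other proteins of the extracellular matrix. This neighbourhood is known as a target of amplification in mouse and human tumours. An amplification that is made of several separate pieces appears on an array as alternating high and low stretches of probes, and the probes on both sides of each step bound the place where the copy number changes.

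The probes of the 3 genes are shown because they carry the values of Birc2, Birc3 and Yap1. Each is a designed oligonucleotide of the array, printed as deposited and with no strand given by the files. Birc2 probes 1 and 2 lie at chr9:7822664-7822723 and chr9:7835042-7835101. Birc3 probes 1 and 2 lie at chr9:7855408-7855467 and chr9:7862355-7862414. The first and last of the 7 Yap1 probes lie at chr9:7937019-7937078 and chr9:7995336-7995395. The array names the gene of a probe only, and no mm9 annotation of exons, introns or untranslated parts was used here.
Birc2 probe 1: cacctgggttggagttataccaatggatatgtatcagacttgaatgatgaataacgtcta
Birc2 probe 2: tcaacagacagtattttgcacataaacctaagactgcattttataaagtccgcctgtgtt
Birc3 probe 1: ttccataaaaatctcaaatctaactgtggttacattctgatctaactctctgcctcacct
Birc3 probe 2: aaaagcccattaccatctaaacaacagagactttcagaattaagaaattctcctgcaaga
Yap1 probe 1: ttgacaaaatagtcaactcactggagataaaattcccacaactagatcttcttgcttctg
Yap1 probe 7: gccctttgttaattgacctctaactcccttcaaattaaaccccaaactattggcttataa

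The probes next to 5 of the steps in tumour 3 are shown because the copy number changes between the left and the right probe of each pair. Edge 1 separates Mmp13 from the rest of the metalloproteinase cluster, edges 4 and 7 lie inside Cntn5, edge 11 lies inside Amotl1 and edge 12 lies inside Fat3. The pairs lie at chr9:7339132-7339191 and chr9:7347131-7347190 for edge 1, at chr9:9757992-9758051 and chr9:9769619-9769678 for edge 4, at chr9:10699606-10699665 and chr9:10707999-10708058 for edge 7, at chr9:14357314-14357373 and chr9:14367027-14367086 for edge 11, and at chr9:15931335-15931394 and chr9:15944045-15944104 for edge 12.
edge 1 left: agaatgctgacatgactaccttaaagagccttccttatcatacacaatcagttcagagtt
edge 1 right: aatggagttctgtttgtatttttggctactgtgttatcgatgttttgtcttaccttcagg
edge 4 left: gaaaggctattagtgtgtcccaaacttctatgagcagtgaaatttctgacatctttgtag
edge 4 right: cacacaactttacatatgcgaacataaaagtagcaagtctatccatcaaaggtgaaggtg
edge 7 left: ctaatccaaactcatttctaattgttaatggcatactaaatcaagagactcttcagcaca
edge 7 right: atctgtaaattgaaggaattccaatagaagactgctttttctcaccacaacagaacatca
edge 11 left: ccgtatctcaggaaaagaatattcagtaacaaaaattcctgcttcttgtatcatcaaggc
edge 11 right: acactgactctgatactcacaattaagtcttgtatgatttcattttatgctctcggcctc
edge 12 left: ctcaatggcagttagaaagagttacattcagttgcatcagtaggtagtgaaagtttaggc
edge 12 right: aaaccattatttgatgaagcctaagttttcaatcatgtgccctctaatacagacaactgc

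In tumour 3 the region was split into 6 gained blocks with 5 ungained stretches between them. The blocks held 317 of the 1049 probes (30.2%) and covered 4.21 Mb of the 8.58 Mb from the start of the first block to the end of the last. A block was defined as consecutive segments with a mean log2 ratio of at least 0.6, and the segmentation gave 15 segments in the region, 8 of them in blocks. Gained and ungained in tumour 3 mean inside and outside a block. This bar is higher than the 0.2 used below for calls of segments and for losses of genes. Over the gained probes the log2 ratio averaged 1.30 ± 0.19 (SD over probes), which is a linear ratio of 2.47. At least 0.6 was reached by 323 probes of the region, against a background of 1.68% of all probes of the array. The 251 probes of the ungained stretches between the blocks had a mean of 0.16 ± 0.16 (SD over probes). The step between both levels was 1.14 on the log2 scale, or 2.21-fold. The levels hardly met: the highest ungained probe between blocks read 0.74, and 1 gained probe, at 0.64, lay below it.

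**Figure D1:**
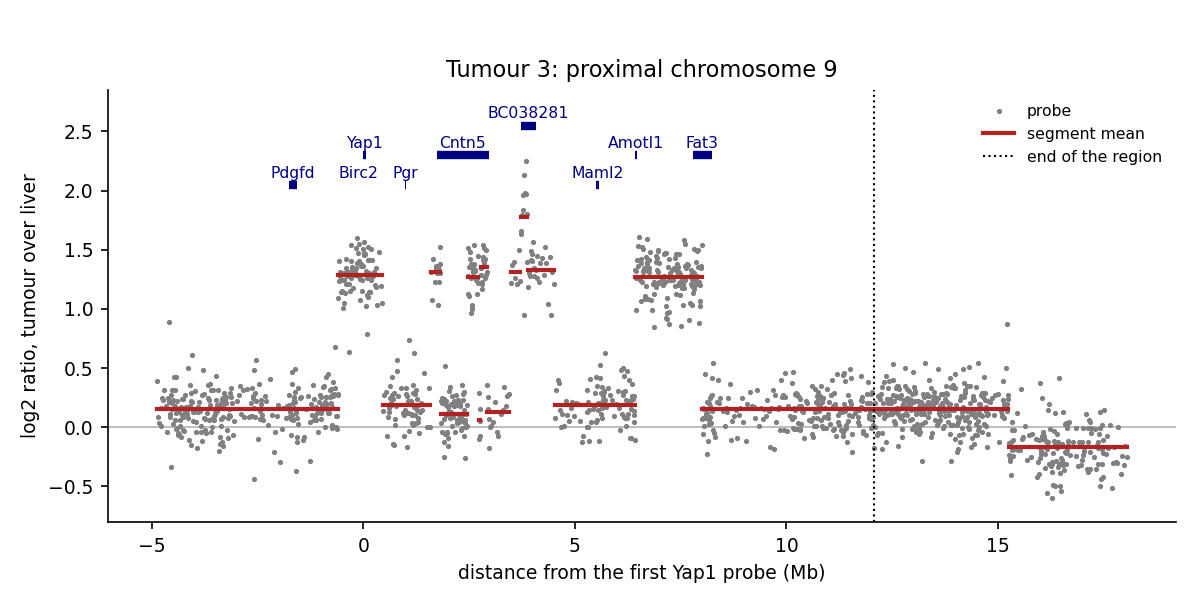
Log2 ratio of tumour 3 over its liver (vertical axis) for each probe (grey points) against the distance from the first Yap1 probe in Mb (horizontal axis), with segment means as red lines, named genes as bars and the end of the region as a dotted line. The probes fall on a level near 1.30 in the 6 gained blocks and near 0.16 between them, and the level right of the last block goes on past the end of the region.

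The blocks differed in length far more than in height. Block 1, chr9:7347131-8367708, was 1.02 Mb long, held Birc2, Birc3 and Yap1 and had a mean of 1.28 ± 0.16 (SD, 84 probes). Block 2, chr9:9531013-9758051, was 0.227 Mb long with a mean of 1.31 ± 0.12 (16 probes), and its named probes all belong to Cntn5. Block 3, chr9:10402907-10645420, was 0.243 Mb long with a mean of 1.27 ± 0.16 (25 probes), and it too lies within Cntn5. Blocks 2, 3 and 4 thus hold pieces of the same gene. Block 4, chr9:10707999-10849126, was the shortest at 0.141 Mb, with a mean of 1.35 ± 0.11 (16 probes). Block 5, chr9:11422311-12434959, was 1.01 Mb long with a mean of 1.45 ± 0.29 (43 probes), and its only gene name is BC038281. Block 6, chr9:14367027-15931394, was the longest at 1.56 Mb, with a mean of 1.27 ± 0.17 (133 probes), and it held Mre11a, Panx1 and Mtnr1b among its 25 gene names. The wider spread of block 5 came with an inner segment of 12 probes, chr9:11660858-11810851, that averaged 1.78 ± 0.35 against 1.31 and 1.33 on both sides of it. Its 11 probes named BC038281 ran from 0.95 to 2.25.

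The 5 stretches between blocks lay close to each other in level, with means from 0.066 to 0.19. The shortest, chr9:10658290-10699665 inside Cntn5, had only 5 probes. The longest, chr9:12474601-14357373, ran over 1.88 Mb and 95 probes from the far side of BC038281 to Amotl1. Before the first block, 267 probes had a mean of 0.15, and after the last block the same level of 0.15 went on over 511 probes to position 23180373, beyond the region. These low stretches lay above the rest of chromosome 9 in tumour 3, whose mean was -0.15 ± 0.20 (SD over 7687 probes). Mean GC content of the probes was 36.8% in the blocks and 36.6% between them.

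Of the 12 edges of the blocks, 7 fell inside a gene as the array names its probes. Edges 4 to 8 lay inside Cntn5, a contactin that acts in adhesion between neurons. Edge 11 lay inside Amotl1, an angiomotin family member that binds Yap1, and edge 12 inside Fat3, a large atypical cadherin. The intervals that hold the edges were 7.89 to 50.5 kb long, with a median probe spacing of 11.6 kb over the region. At edge 1 the ratio went from 0.28 on the left to 1.09 on the right within 7.94 kb. At edge 7 it went from -0.077 to 1.35 within 8.33 kb. These neighbouring probes are the ones printed above, and each pair stands on opposite levels. At edge 4 the ratio went from 1.38 to 0.034, at edge 11 from -0.11 to 1.33, and at edge 12 from 1.54 to 0.068. The other 5 edges lay between named genes, and the widest interval, at edge 9, separates Cntn5 from BC038281.

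Steps of this size were rare elsewhere in tumour 3. Of its 14 steps of at least 0.8 between adjoining segments over all chromosomes, 12 lay in the region, none on the rest of chromosome 9 and the other 2 on chromosome 6. No other tumour had such a step in the region. These counts come from the values that led to the choice of the region and are given as a description.

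All 3 genes the region is named for lay inside block 1. Birc2 had a log2 ratio of 1.48 in tumour 3 (2 probes, 1.41 and 1.55), against a lowest value of -0.47 in tumour 11, a median of 0.11 and a highest value of 0.31 in tumour 9 among the 10 other tumours. Birc3 stood at 1.27 in tumour 3 (2 probes, 1.26 and 1.28), against -0.34 in tumour 8, a median of -0.026 and 0.19 in tumour 5. Yap1 stood at 1.47 ± 0.073 in tumour 3 (SD over 7 probes), against -0.22 in tumour 8, a median of 0.064 and 0.32 in tumour 7. With its sign turned, tumour 11 would be the highest of the others for Birc2, at 0.47, and the lowest would be tumour 8 at -0.39. In either direction of tumour 11, tumour 3 was above every other tumour for each of the 3 genes, and the other tumours lay on both sides of 0. Over all 11 probes the mean was 1.43 ± 0.10 in tumour 3, or a linear ratio of 2.70. With normexp background correction it was 2.16, or a linear ratio of 4.48, so the height depends on the handling of background. The same mean was 0.25 in tumour 7, 0.17 in tumour 9, 0.13 in tumour 5, 0.12 in tumour 2, 0.073 in tumour 4, 0.0092 in tumour 1, 0.0046 in tumour 10, -0.044 in tumour 11 as labelled, -0.12 in tumour 6 and -0.27 in tumour 8. None of these 10 means came near the level of tumour 3.

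The metalloproteinase cluster was cut at one end. Mmp13, which encodes a collagenase, had 0.22 in tumour 3 (2 probes) and lay left of edge 1. The 7 other metalloproteinase genes with probes were gained. Mmp12 (macrophage elastase) had 1.41, Mmp3 (stromelysin) 1.30, Mmp1a 1.30 and Mmp27 1.31, each on 1 probe. Mmp8 (neutrophil collagenase) had 1.29 (2 probes), Mmp1b 1.28 (3 probes) and Mmp20 (an enamel protease) 1.38 (5 probes). Mmp7 and Mmp10 have no probe of their own name, and both lie between gained neighbours in the gene order of a later build, Mmp7 between Mmp20 and Tmem123 and Mmp10 between Mmp1a and Mmp8. In the 10 other tumours, Mmp1b ran from -1.13 in tumour 9 to 0.96 in tumour 11, and Mmp8 from -0.75 in tumour 9 to 1.11 in tumour 11. Both extremes came from the pair of arrays with the highest noise. With tumour 11 turned, Mmp1b ran from -1.13 in tumour 9 to 0.015 in tumour 7, and Mmp8 from -1.11 in tumour 11 to 0.28 in tumour 1. In tumour 3, Mmp1b fell to 0.62 with normexp background correction.

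Genes of signalling and transport were on the high or the low level according to their place. Trpc6, a cation channel, had 0.18 in tumour 3 (13 probes), and Pgr, the progesterone receptor, had 0.21 (5 probes); both lie in the stretch between blocks 1 and 2. Pdgfd, a growth factor of the PDGF family, had 0.15 (23 probes), and Gria4, a glutamate receptor subunit, had 0.12 (34 probes); both lie ahead of block 1. In block 6, Panx1, a channel of the plasma membrane, had 1.22 (3 probes) and Mtnr1b, a melatonin receptor, had 1.25 (2 probes). Of these 6 genes the 2 in block 6 were gained and the other 4 lay outside the blocks. The inflammatory caspases Casp1, Casp4 and Casp12 lie ahead of block 1 with 0.33 (1 probe), 0.25 (2 probes) and 0.31 (3 probes). Among genes of DNA repair and stress, Mre11a, a nuclease of double-strand break repair, was gained at 1.28 (5 probes), while Sesn3, a stress-induced sestrin, had 0.24 (5 probes) and Endod1 had 0.22 (3 probes). Dync2h1, a motor subunit of cilia, had 0.22 (22 probes) and Cep57, a centrosome protein, had 0.28 (3 probes). Maml2, a coactivator of Notch signalling, had 0.20 (8 probes) and lies in the long stretch between blocks 5 and 6.

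**Figure D2:**
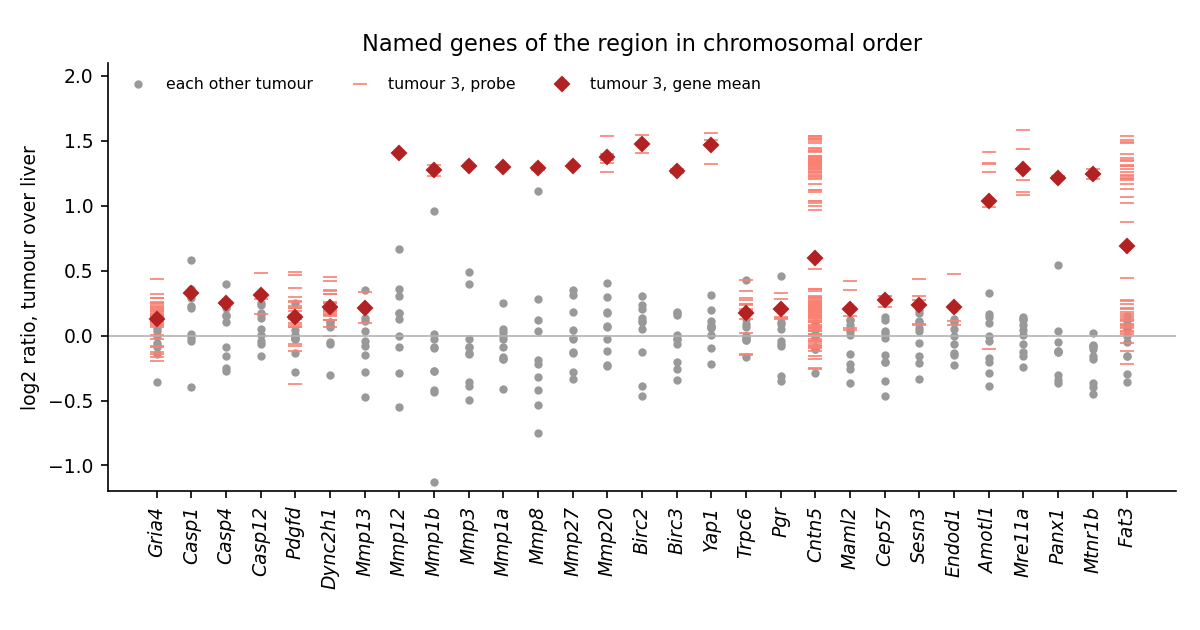
Mean log2 ratio of each named gene (vertical axis), in chromosomal order (horizontal axis), with tumour 3 as red diamonds and its probes as short bars, and each of the 10 other tumours as a grey point. Birc2, Birc3, Yap1 and 7 metalloproteinase genes stand above 1.2 in tumour 3, Mmp13, Trpc6 and Pgr stay near 0.2, and Cntn5, Amotl1 and Fat3 lie between because only some of their probes are gained.

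Amotl1, Cntn5 and Fat3 had probes on both levels, so their gene means describe neither. Cntn5 had a gene mean of 0.60, made of 51 gained probes of 125. Along the gene, its probes averaged 1.32 (10 probes), 0.12 (64), 1.27 (25), 0.066 (5), 1.35 (16) and 0.15 (5) in tumour 3. The gene is thus cut into 3 gained and 3 ungained pieces over 5 edges. Fat3 averaged 1.27 over its first 24 probes and 0.11 over its last 24. Amotl1 had 1 probe at -0.11 and 5 probes with a mean of 1.26. In the 10 other tumours the gene mean of Cntn5 ran from -0.29 in tumour 8 to 0.10 in tumour 11, that of Fat3 from -0.36 in tumour 8 to 0.15 in tumour 4, and that of Amotl1 from -0.39 in tumour 11 to 0.33 in tumour 9. With tumour 11 turned the highest values were 0.058 in tumour 2 for Cntn5, 0.16 in tumour 11 for Fat3 and 0.39 in tumour 11 for Amotl1, and the lowest value of Amotl1 was -0.29 in tumour 8. Tumour 3 lay above all of these values.

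By the place of their probes, 41 of the 96 genes were gained in tumour 3, 3 were split and 52 lay outside the blocks. The 41 gained genes had means from 0.96 to 1.58 with a median of 1.29, and the 52 others from -0.12 to 0.36 with a median of 0.19. Some of these 52, such as Casp12 at 0.31, passed the size of 0.2 that is used below for losses in tumours 7 and 8. A gene mean of at least 0.6 was found for 44 of the 96 genes, against a background of 1.08% of all genes in tumour 3. In 56 of the 96 genes tumour 3 was above every other tumour, against a background of 3.99%, and with tumour 11 turned in 63, against a background of 5.22%. These counts use the values by which the region was chosen and are not evidence about it. Of the 96 genes, 32 rest on 1 probe and 46 on at least 3.

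The blocks were seen in the tumour channel and not in the liver channel of tumour 3. The mean log2 intensity of the red channel was 1.15 higher in the blocks than between them, and that of the green channel was 0.011 higher. In the 10 other tumours the same difference ran from -0.051 in tumour 7 to 0.032 in tumour 4 in the red channel, and from -0.0091 in tumour 2 to 0.053 in tumour 4 in the green channel. Exchanging the channels of tumour 11, at 0.031 in red and 0.051 in green, would raise the top of the red range to 0.051. The red value of tumour 3 thus stood apart, and its green value lay within the range of the others.

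**Figure D3:**
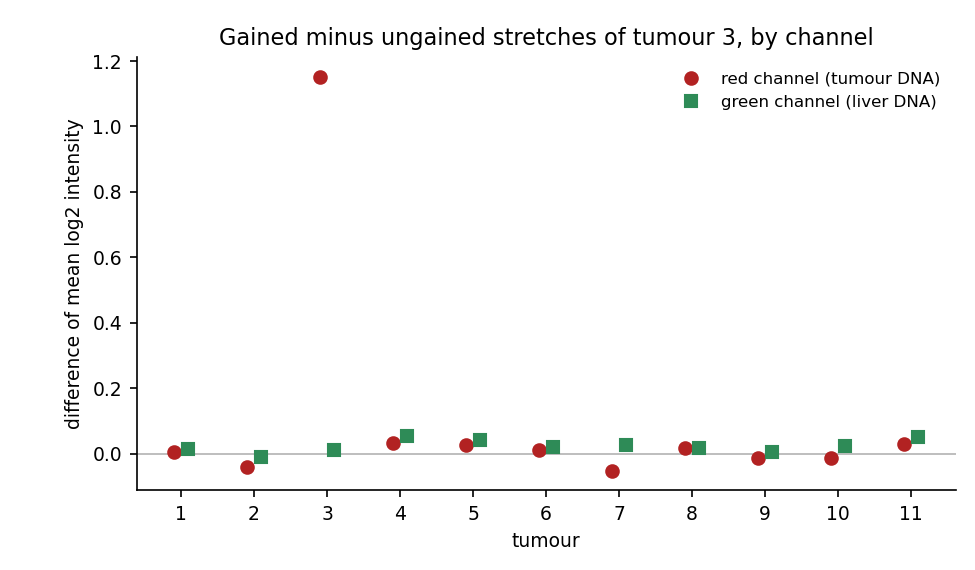
Mean log2 intensity of the probes in the gained blocks of tumour 3 minus that of the probes between the blocks (vertical axis), for each tumour (horizontal axis), in the red channel (tumour DNA, circles) and the green channel (liver DNA, squares). The red value of tumour 3 is 1.15, and all other points lie between -0.051 and 0.053.

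The 10 other tumours did not share this pattern. The mean ratio of the blocks minus that of the stretches between them was -0.024 ± 0.022 (SD, n = 10 tumours), from -0.079 in tumour 7 to -0.00083 in tumour 8, and it was below 0 in 10 of 10 tumours. An exact two-sided sign-flip permutation test gave p = 0.00195, the smallest value the test can give with 10 tumours. This difference was chosen after seeing the data and is small beside the 1.14 of tumour 3, and it is opposite in sign. The slide means were -0.016 (n = 2), -0.035 (n = 4) and -0.018 (n = 4). With medians over probes in place of means it was -0.013 with an exact permutation p = 0.182, so the call rests on the choice of the mean. With the sign of tumour 11 turned it was -0.020 with an exact permutation p = 0.0254, with 9 of 10 tumours below 0. Without dim probes 2 of 10 tumours were above 0. In the red channel the blocks minus the stretches lay on both sides of 0, from -0.051 in tumour 7 to 0.032 in tumour 4. The green channel was higher in the blocks in 9 of the 10 tumours, with values from -0.0091 in tumour 2 to 0.053 in tumour 4. The part of each channel in the difference was not tested.

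**Figure D4:**
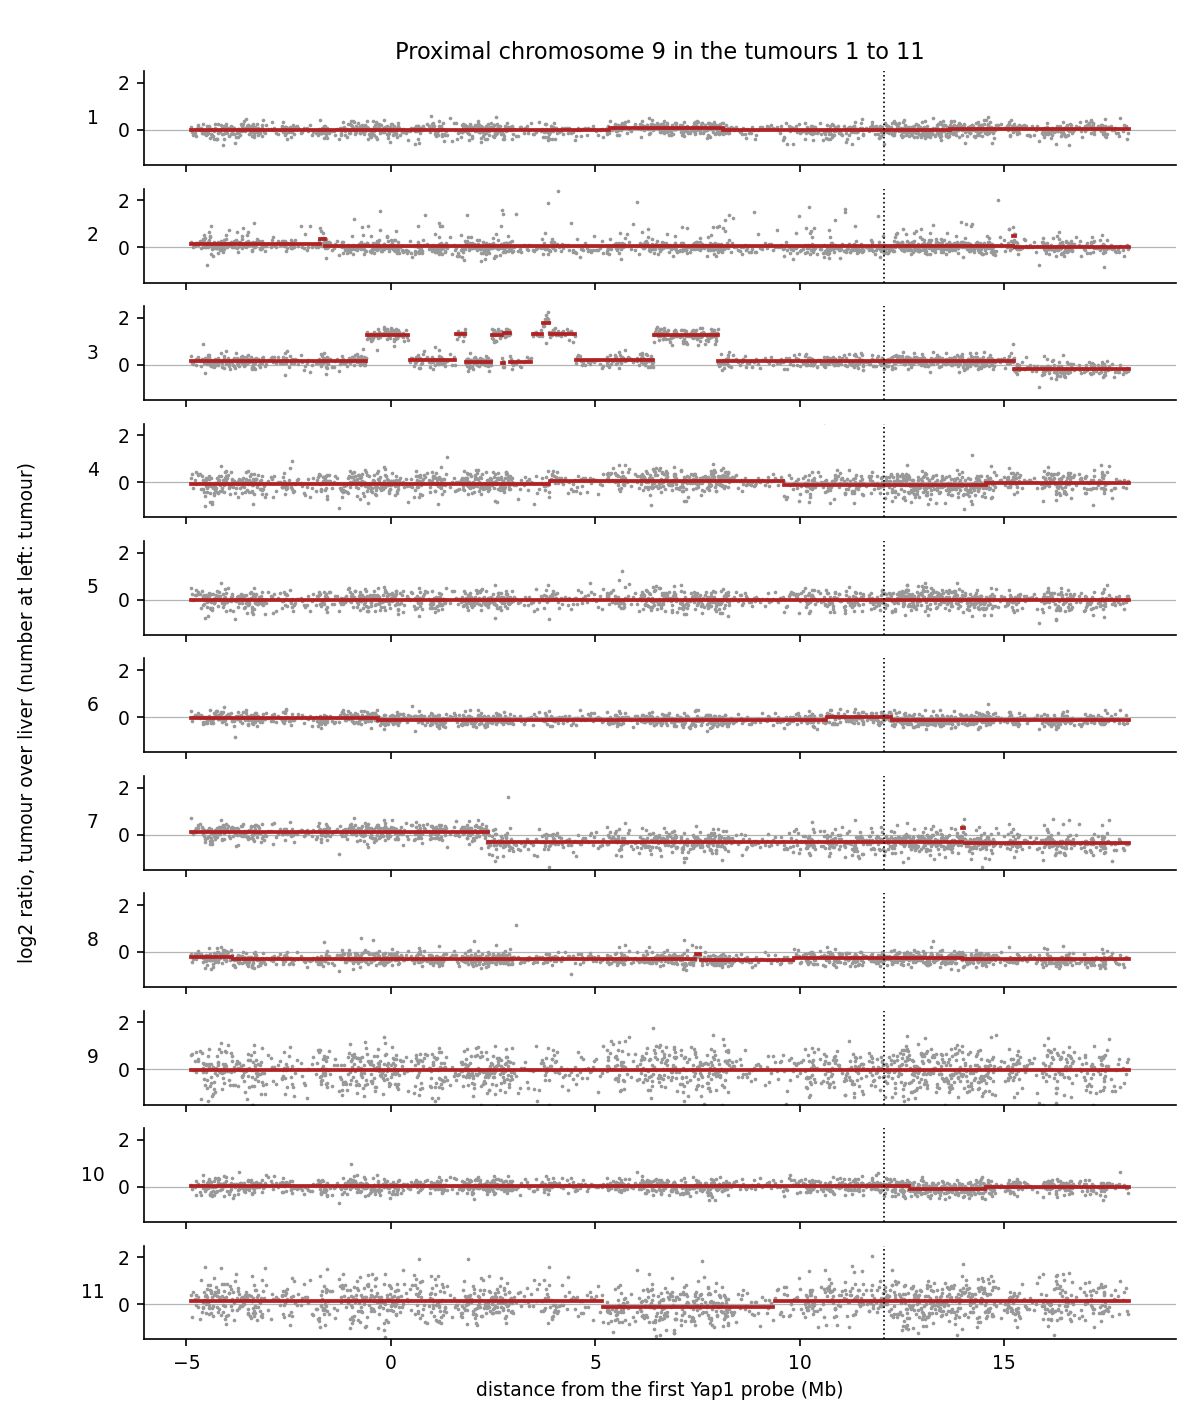
Log2 ratio over liver (vertical axis of each panel, from -1.5 to 2.5) against the distance from the first Yap1 probe in Mb (horizontal axis) for tumours 1 to 11 from top to bottom, with probes in grey and segment means in red; 27 probe values of the region lie outside the axes, 21 of them in tumour 9. Tumour 3 alone shows the alternating blocks, tumour 7 steps down from 0.11 to -0.31 within the region, and tumour 8 has segment means from -0.34 to -0.10.

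Segments were called in 3 of the 10 other tumours, at a mean of at least 0.2 in size over at least 10 probes. Tumour 7 stepped from 0.11 (491 probes, chr9:3046525-10304347) to -0.31 (750 probes, chr9:10316961-21913174), so that 53.2% of its probes in the region lay in a loss. The step lay inside Cntn5, within the stretch between blocks 2 and 3 of tumour 3 and not at one of the 12 edges. Birc2, Birc3 and Yap1 lie on the side that was not lost in tumour 7. Tumour 8 had losses over 99.0% of its probes in the region, with segment means from -0.34 to -0.21 around 1 short uncalled segment at -0.10. The rest of chromosome 9 was as low in tumour 8, at -0.29. Tumour 2 had 1 called gain of 13 probes with a mean of 0.36, chr9:6206468-6318846, inside Pdgfd, and this tumour had 93 probes of the region not well above background. Tumours 1, 4, 5, 6, 9, 10 and 11 had no call in the region. The noise SD of a single probe was highest in tumours 9 and 11, at 0.55 and 0.51. By gene, 38 of the 96 genes had a mean of at most -0.2 in tumour 7 (background 26.7%) and 73 in tumour 8 (background 24.1%).

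The region was compared with the rest of chromosome 9 in the tumours that did not lead to its choice. In tumour 3 the region averaged 0.50 and the rest -0.15, a difference of 0.65. In the 10 other tumours the difference averaged 0.016 ± 0.070 (SD, n = 10), from -0.16 in tumour 7 to 0.082 in tumour 11, and it was above 0 in 8 of 10 tumours. It did not differ from 0 beyond the spread between tumours (exact two-sided sign-flip permutation test, p = 0.502). This result turned on tumour 7: without it the mean was 0.036 with an exact permutation p = 0.0156. With the sign of tumour 11 turned the mean over the 10 tumours was 9.03e-05 with an exact permutation p = 0.998, with 7 of 10 tumours above 0 and the highest value, 0.073, in tumour 1. Within slides the mean was 0.020 (n = 2), -0.021 (n = 4) and 0.052 (n = 4), and tumour 7 is on the slide with the negative mean.

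**Figure D5:**
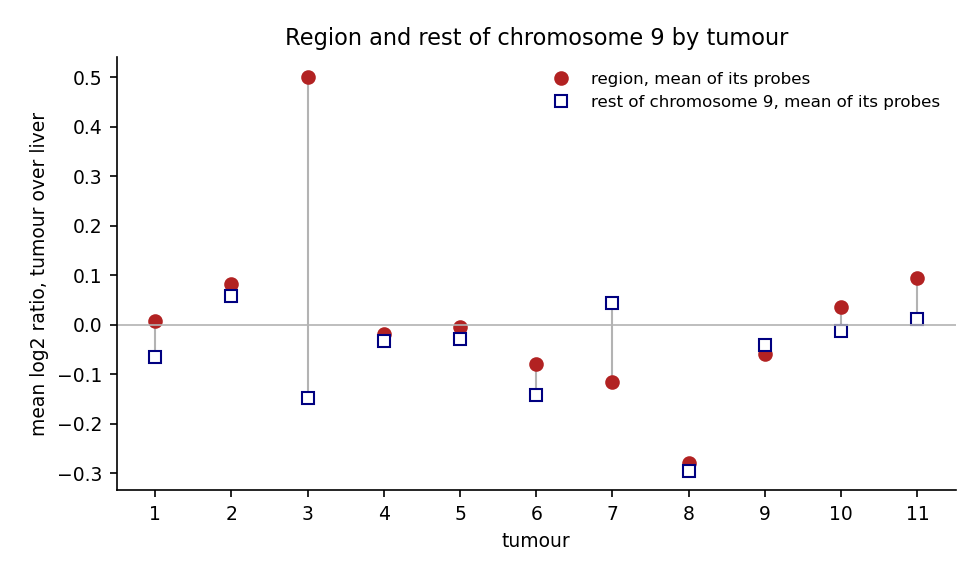
Mean log2 ratio over liver (vertical axis) of the region (filled circles) and of the rest of chromosome 9 (open squares) for each of the 11 tumours (horizontal axis). Tumour 3 has the widest gap at 0.50 against -0.15, tumour 7 has the region below the rest, and tumour 8 has -0.28 in the region and -0.29 in the rest.

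Single genes of the region were tested over the same 10 tumours with limma, fitted across all 9305 genes with at least 3 probes. None of the 45 region genes tested passed an adjusted p of 0.05, against a background of 0.387% of all genes called above 0 and 0.193% called below 0. Here 0 stands for the typical probe of an array and not for equality with the liver. At an unadjusted p below 0.05 there were 4, against a background of 19.5% of all genes. The 4 genes, chosen after their values were seen, were Piwil4 with a mean of -0.17 (limma, lowest adjusted p = 0.113), Kdm4d with -0.17, Slc36a4 with -0.17 and Med17 with -0.20. Yap1 had a mean of 0.058 and an adjusted p = 0.558 by limma. The median over the 45 genes was -0.026 and over all genes -0.013. With genes of fewer probes included, 0 of 95 region genes passed, against a background of 0.667% of all genes, and 11 had an unadjusted p below 0.05, against a background of 19.3%. Some settings called fewer genes over the whole array than the 54 of the main fit. With mode centring limma called 0 of all 9305 genes, and it also called 0 without tumour 1, 2, 4, 5, 6, 7 or 8. Certain other settings called more genes in the region and over the whole array. With the sign of tumour 11 turned limma called 3 of the 45 region genes (Mmp1b, Panx1 and Slc36a4), against a background of 14.9% of all genes, and 10 had an unadjusted p below 0.05, against a background of 30.9%. Without tumour 11 it called 2 (Mmp1b and Panx1) and with the slide as a block 2 (Med17 and Piwil4), each against a background of 13.3%. With normexp background correction it called 3 (AK132735, Casp12 and Med17), against a background of 7.40%. None of these counts is above the share over all genes.

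Genes of the pathways of Birc2, Birc3 and Yap1 that lie outside the region were read from lists chosen with earlier results of these data known; the region's own members of the lists are left out of the counts. Of 22 such genes of the Hippo list, 18 were on the array and 14 were tested, and limma called 0 of them in the 10 other tumours, with 6 at an unadjusted p below 0.05 against a background of 19.5% of all genes. Their median was -0.068, beside -0.013 over all genes tested. The nearest to a call were Stk3, a kinase that acts upstream of Yap1, with a mean of 0.18 (adjusted p = 0.0539), and Vgll4, which competes with Yap1 for TEAD factors, with -0.19 (adjusted p = 0.0571). In tumour 3, 1 of the 18 reached 0.6, against a background of 1.08% of all genes: Wwtr1, the paralogue of Yap1 on chromosome 3, with 0.63. Of 18 such genes of the apoptosis inhibitor and NF-kB list, 16 were on the array and 10 were tested, with 0 called, 1 at an unadjusted p below 0.05 and a median of 0.0073. This gene was Casp8, with a mean of 0.18 (limma, adjusted p = 0.0539), as near to a call as Stk3. None of the 16 reached 0.6 in tumour 3, and Xiap on chromosome X, which encodes another inhibitor of apoptosis, had 0.027. Of 13 metalloproteinases outside the cluster, 8 were on the array and 4 were tested, with 0 called, 1 at an unadjusted p below 0.05 and a median of 0.019. None of the 8 reached 0.6 in tumour 3. With the sign of tumour 11 turned limma called 7 of the 28 genes tested in these lists, against the background of 14.9% of all genes, and with the slide as a block it called 8, against 13.3%. The 7 were Mmp24, Nf2, Stk3, Taok1, Traf2, Vgll4 and Wwtr1. The 8 were Casp8, Mmp24, Nf2, Stk3, Tead1, Vgll4, Wwc1 and Wwtr1. Both counts, and the 6 of 14 Hippo genes at an unadjusted p below 0.05, were above the share over all genes. No list was tested as a set, and the part of larger chromosome changes was not tested.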

How the data were processed

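Each tumour shared 1 array with the liver of its animal, on 3 slides. The submitters' processing notes name Agilent Feature Extraction 10.5.1.1 and Partek (no version); per the file headers, version 11.0.1.1 made the files of tumours 4, 7, 9 and 11, and the build is mm9. The deposited red and green intensity values are processed signals, background-subtracted and dye-normalized by the authors' software. The deposited LogRatio column is the log10 of red over green, and the authors' value table holds log2 ratios of the probes with no further centring found (column medians -0.049 to 0.021).

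The log2 ratio of processed signals was averaged over the spots of a probe, without outlier spots, and the array median was subtracted. Chromosome 9 was segmented by optimal partitioning (at least 5 probes; a penalty of 2 noise variances, multiplied by the logarithm of the probe number; values clipped at 4 SD from the running median of 11 neighbours). Gene values are means over probes named for a gene. Of 96 names, 54 are symbols of the RefSeq table of a later build, 7 matched as synonyms and 35 did not match; 1 name found on more than 1 chromosome was left out of limma. Tumours were tested by sign-flip permutation and limma 3.58.1 (R 4.3.3, intercept, Benjamini-Hochberg), with Python 3.11.15. The segmentation and the limma fit, but not the sign-flip test, were first run on simulated data. The simulated noise was independent between probes or arrays, unlike the correlated arrays here. The members, lists and tests were chosen with earlier results of these data known. The genes named are Birc2, Birc3 and Yap1, fixed groups by role, genes at the edges of segments, the gene with most probes of a segment without such a gene, and up to 5 called genes.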

Additional observations from a re-analysis of the deposited data

How the results depend on the processing

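No paired analysis was possible because the design has 1 group, with no replicate numbers to pair between groups; each ratio already sets a tumour against the liver of its own animal. The region minus the rest of chromosome 9 in the 10 other tumours kept its sign under the 9 other settings (9.03e-05 to 0.021), and from 0.0092 to 0.036 with 1 tumour left out, where only the value without tumour 7 passed the threshold. The difference between blocks and stretches stayed between -0.028 and -0.013, and was weaker, at -0.013, with medians over probes; with 1 tumour left out it ran from -0.027 to -0.018. The count of region genes called by limma went from 0 of 45 to 3 with normexp, 3 with tumour 11 turned and 2 with the slide as a block, while the calls over all 9305 genes went from 54 to 689, 1383 and 1242; it ran from 0 to 2 with 1 tumour left out, where 1240 of all genes were called without tumour 11. The count for the 28 genes of the lists went from 0 to 2 with normexp, 1 without dim probes (2.07% of all genes), 7 with tumour 11 turned, 8 with the slide as a block and 5 with all 11 tumours (6.89% of all genes), and ran from 0 to 7 with 1 tumour left out. In tumour 3, the 310 of 1049 region probes in called gains became 940 with normexp, 474 with mode centring and 955 at a call threshold of 0.15. The called length went from 3.95 Mb to 15.3, 6.94 and 15.3 Mb. Under these 3 settings the called gains thus took in stretches described above as ungained, so those stretches are ungained only beside the blocks. The number of segments ran from 15 to 21. The mean of Birc2, Birc3 and Yap1 was 2.16 with normexp against 1.43. Of 144 values of single genes with several probes in tumour 3, 129 moved by less than the SD over probes and 15 by more, 12 of these with normexp. For the split genes Cntn5, Fat3 and Amotl1 this SD (0.61, 0.60 and 0.58) spans both levels, so they could hardly count as moved. With normexp Amotl1 went from 1.035 to 1.51 and Fat3 from 0.69 to 1.03, both within it. The LogRatio column and the authors' value table gave nearly the main values, with 1.43 in each for the mean of Birc2, Birc3 and Yap1. Of 30 values of genes with 1 probe, 25 moved by less than the noise SD of the array and 5 by more, all 5 with normexp. None of these 174 values, from the settings run, changed sign. Beyond the settings named, the cause of a change was not tested. The fit on GC content and the difference between blocks and stretches were chosen after seeing the data.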
